A study of Rattus norvegicus with 12 samples.

Results

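The Notch receptors Notch1, Notch2 and Notch3, the ligands Jag1, Jag2 and Dll1, and the target genes Hes1 and Hey1 were followed through chemical carcinogenesis of the rat esophagus. They were taken as the probe sets whose platform gene symbol is one of these 8 names. All 8 genes were measured, by 9 of the 31042 probe sets tested and as 8 of the 14217 genes that the platform names singly. Notch1 has 2 probe sets, 1390426_at and 1371491_at, and the one with the higher mean over all arrays, 1390426_at, stood for the gene. The others are 1387480_at (Notch2), 1369329_at (Notch3), 1368725_at (Jag1), 1371006_at (Jag2), 1368938_at (Dll1), 1387036_at (Hes1) and 1386080_at (Hey1).

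The samples were 12 Affymetrix arrays of total RNA, 1 array per sample, in groups of 3: NMBA week 6, NMBA week 15, NMBA week 29, and control. NMBA is N-nitrosomethylbenzylamine, a nitrosamine used to induce squamous tumors in this organ. NMBA rats were injected under the skin with 0.3 mg per kg body weight in 0.2 ml, 3 times a week for 5 weeks, and controls are labelled normal control (the protocol gives the other rats the dimethyl sulfoxide and water solvent on the same schedule). In the labels week 6 is the early stage, week 15 the middle stage and week 29 the late stage of tumor development. Strain, age and the week at which controls were taken were not given in the sources used here. All rats were caged in threes, and the labels neither tie arrays to cages nor say that each array is a different animal, so the spread that p-values rest on is that of these samples and may be technical.

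Notch signaling passes between touching cells. A ligand of the Jagged or Delta family on the sending cell pulls on a Notch receptor, which is then cut by an ADAM protease and by gamma-secretase, and the freed intracellular part enters the nucleus, joins the DNA-binding protein RBPJ and turns on genes such as those of the Hes and Hey repressors. In squamous epithelia Notch1 acts mainly as a promoter of keratinocyte differentiation and a restraint on growth, and NOTCH1 is often mutated in human esophageal squamous tissue. Hey1 and Notch3 are also known from blood vessels, Hey1 in endothelium and Notch3 in the smooth muscle and pericytes of the vessel wall.

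Hes1 is the classical direct target, and its promoter is shown because it holds 2 copies of a short motif that RBPJ reads. The sequence comes from RefSeq on rat build GRCr8, chr11:84213046-84213295 on the minus strand, and runs over the 250 bases before the gene start; the Dll1 window, chr1:64993275-64993524 on the minus strand, is set beside it because it is the other member window with the motif. Capitals mark TGGGAA, the RBPJ core, or its reverse complement TTCCCA.
Hes1: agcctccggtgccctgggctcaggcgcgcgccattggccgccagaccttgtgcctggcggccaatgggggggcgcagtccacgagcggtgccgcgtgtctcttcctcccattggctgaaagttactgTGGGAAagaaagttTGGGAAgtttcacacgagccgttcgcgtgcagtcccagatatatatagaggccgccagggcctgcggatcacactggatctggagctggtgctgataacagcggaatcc
Dll1: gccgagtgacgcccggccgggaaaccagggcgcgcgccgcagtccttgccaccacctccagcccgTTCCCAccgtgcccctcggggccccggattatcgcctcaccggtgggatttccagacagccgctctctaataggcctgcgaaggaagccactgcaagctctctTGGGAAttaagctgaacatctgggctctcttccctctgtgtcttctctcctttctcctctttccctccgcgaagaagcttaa
In Hes1 both copies lie on the gene's own strand and begin 123 and 109 bases before the start. In Dll1 the copies begin 185 and 82 bases before the start, the farther of them on the opposite strand. The RefSeq table gave a window for 7 of the 8 members, all but Hey1, and the windows of Notch1, Notch2, Notch3, Jag1 and Jag2 hold no TGGGAA on either strand. Across all 33469 windows of this length, 22.1% hold at least 1 copy on either strand and 2.71% at least 2, so a match describes these letters only.

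On the whole, 5 members (Notch1, Jag1, Jag2, Dll1 and Hes1) had their highest mean at week 15 and means below control at weeks 6 and 29. Of these 5, only Notch1 at week 29 passed the test against control. Hey1 was below control at all 3 weeks, Notch3 was highest at week 29, and Notch2 moved little. The Notch3, Notch2 and Hey1 differences between weeks did not pass the test.

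**Figure D1:**
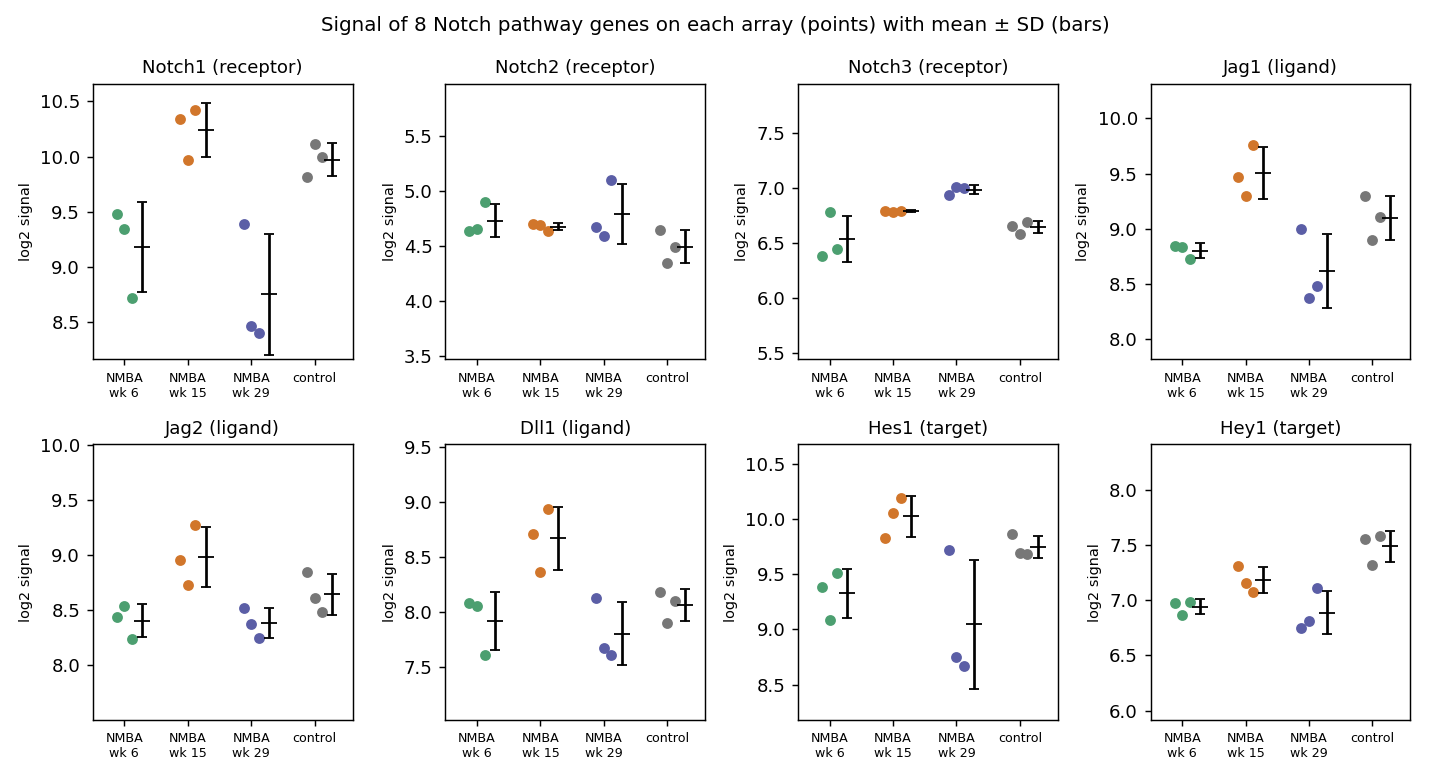
Log2 signal of each of the 8 genes (1 panel a gene, every panel spanning the same 2.5 log2 units) on the 12 arrays, with points for arrays and bars for the mean ± SD of 3 arrays. Notch1, Jag1, Jag2, Dll1 and Hes1 peak at week 15, and Hey1 is below every control array on every NMBA array.

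Among the receptors, Notch1 had the largest differences. Its log2 signal was 9.48, 9.35 and 8.72 at week 6, 10.34, 9.97 and 10.43 at week 15 and 9.38, 8.46 and 8.40 at week 29, against 9.81, 10.11 and 9.99 in controls. All week 6 and week 29 arrays lay below all controls, and the week 15 arrays overlapped the controls. Within week 29, replicate 1 was the highest by almost a full log2 unit. Notch1 averaged 8.75 ± 0.55 at week 29 and 9.97 ± 0.15 in controls (SD, n = 3 each), a log2 difference of -1.22 ± 0.26 (SE) or 2.33-fold lower (limma, adjusted p = 0.0149). At week 6 the difference of -0.79 ± 0.26 missed the threshold (adjusted p = 0.0744), although it passed in a fit of the 6 arrays compared (0.0347) and without week 29 replicate 1 (0.0286), and at week 15 it was 0.27 ± 0.26 (adjusted p = 0.533). The other probe set, 1371491_at, gave -0.68, 0.30 and -1.05 for the same 3 comparisons, with an adjusted p = 0.0124 at week 29.

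Between the NMBA weeks, Notch1 was 2.09-fold higher at week 15 than at week 6 (log2 difference 1.06 ± 0.26, SE, adjusted p = 0.0066) and 2.82-fold lower at week 29 than at week 15 (-1.49 ± 0.26, adjusted p = 0.00075). Ordered by mean, Notch1 thus ran from week 15 through control and week 6 to week 29. No pair of neighbours in that order passed the test. The interval of the difference between weeks 29 and 6 ran from -0.99 to 0.12 (95%). The week 29 call was lost without control replicate 3 (adjusted p = 0.0514), week 29 replicate 2 (0.0634) or week 29 replicate 3 (0.0777), and without week 29 replicate 1 the difference was -1.54.

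Notch3, also known from vascular mural cells, rose at week 29. Its signal was 6.93, 7.01 and 7.0 at week 29, against 6.65, 6.58 and 6.69 in controls, and the groups did not overlap. The log2 difference was 0.34 ± 0.10 (SE, adjusted p = 0.0424), or 1.27-fold. Signals were 6.38, 6.78 and 6.44 at week 6 and 6.79, 6.78 and 6.79 at week 15, with differences from control of -0.11 and 0.15 that did not pass, although the week 15 arrays lay above all controls. For this call, leaving out any 1 control array (adjusted p = 0.104, 0.0971 and 0.091 for replicates 1, 2 and 3) or 1 of 2 week 29 arrays (0.12 for replicate 2 and 0.139 for replicate 3) lost it, and so did the replicate number as a block (0.0553). The summed level of 8 mural cell markers, as the mean log2 signal of the list, was 7.40 ± 0.12 at week 29 and 7.40 ± 0.20 in controls (SD, n = 3 each), and 0 of the 8 passed the test in that comparison. The score of 10 smooth muscle markers was 10.47 ± 0.25 at week 29 and 11.04 ± 0.37 in controls, and 5 of the 10 fell and 1 rose. In that comparison 7.44% of all probe sets fell and 7.72% rose. Across the 12 arrays, Pearson's r of Notch3 was -0.05 with the mural cell score and -0.51 with the smooth muscle score. The part of either list in the Notch3 result was not tested.

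Notch2 was dim on all arrays, between 4.35 and 5.10 in a table whose signals ran from 2.49 to 14.71, and whether it exceeded background was not assessed, for want of detection calls. It was 4.63, 4.65 and 4.90 at week 6, 4.69, 4.69 and 4.63 at week 15 and 4.67, 4.59 and 5.10 at week 29, against 4.64, 4.35 and 4.49 in controls. Its largest difference from control was 0.29 at week 29 (95% interval 0.0043 to 0.58 before adjustment, adjusted p = 0.148). All pairs of groups overlapped.

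All 3 ligands had their highest mean at week 15. Jag1, a Jagged ligand of many epithelia, had signals of 8.84, 8.83 and 8.72 at week 6, 9.47, 9.29 and 9.76 at week 15 and 8.999, 8.37 and 8.48 at week 29, against 9.29, 8.90 and 9.10 in controls. The week 15 arrays were above all arrays of weeks 6 and 29 and overlapped the controls, and the week 6 arrays were below all controls. Jag1 was 1.63-fold higher at week 15 than at week 6 (log2 difference 0.71 ± 0.17, SE, adjusted p = 0.00602) and 1.85-fold lower at week 29 than at week 15 (-0.89 ± 0.17, adjusted p = 0.00137). Against control, differences of -0.30, 0.41 and -0.48 at weeks 6, 15 and 29 did not pass (adjusted p = 0.284, 0.152 and 0.069). Without week 29 replicate 1 the week 29 difference was -0.67 and passed (adjusted p = 0.0111).

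Jag2, the Jagged ligand known from the basal layer of stratified epithelium, had signals of 8.43, 8.54 and 8.24 at week 6, 8.96, 8.73 and 9.27 at week 15 and 8.52, 8.38 and 8.25 at week 29, against 8.84, 8.61 and 8.48 in controls. Week 15 was again separate from both other weeks, by 0.58 ± 0.15 on the log2 scale over week 6 (adjusted p = 0.00823), and week 29 was lower than week 15 (-0.60 ± 0.15, adjusted p = 0.00657). Every NMBA group overlapped the controls, and the differences from control of -0.24, 0.34 and -0.26 did not pass.

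Dll1, a Delta ligand, stood out at week 15, with 8.71, 8.37 and 8.94, against 8.19, 7.91 and 8.11 in controls. Each week 15 array was above each control, yet the log2 difference of 0.61 ± 0.18 (SE, 1.52-fold) missed the threshold at an adjusted p = 0.0596. It passed when week 15 replicate 2 (adjusted p = 0.0248), week 29 replicate 1 (0.0399) or week 6 replicate 3 (0.0494) was left out. At week 6 Dll1 was 8.08, 8.06 and 7.61, and at week 29 it was 8.13, 7.67 and 7.61, both overlapping the controls. The step up to week 15 from week 6 was 0.75 ± 0.18 (adjusted p = 0.00641), and week 29 was lower than week 15 by 0.87 (log2 difference -0.87, adjusted p = 0.00266).

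Hes1, a transcriptional repressor that Notch induces in many cell types, had signals of 9.38, 9.08 and 9.51 at week 6, 9.83, 10.06 and 10.20 at week 15 and 9.72, 8.75 and 8.66 at week 29, against 9.87, 9.69 and 9.69 in controls. The week 6 arrays were below all controls. At week 29, replicates 2 and 3 lay about 1 log2 unit below the controls, while replicate 1 lay within their range. Hes1 was 1.62-fold higher at week 15 than at week 6 (0.70 ± 0.23, adjusted p = 0.0304) and 1.97-fold lower at week 29 than at week 15 (-0.98 ± 0.23, adjusted p = 0.0054). Its difference from control was -0.42, 0.28 and -0.70 at weeks 6, 15 and 29 (adjusted p = 0.267, 0.477 and 0.0564), and the last passed when probe sets with a mean signal under 5 were left out (adjusted p = 0.0497). Without week 29 replicate 1, the week 29 difference was -1.04 (adjusted p = 0.00256). The rise from week 6 was not called without week 6 replicate 1 (adjusted p = 0.0593) or 2 (0.108), or without week 15 replicate 2 (0.0635) or 3 (0.0908).

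Hey1, a repressor of the same family, was the member that fell at both week 6 and week 29. It was 6.97, 6.86 and 6.99 at week 6, 7.31, 7.16 and 7.07 at week 15 and 6.75, 6.81 and 7.11 at week 29, against 7.56, 7.32 and 7.59 in controls. Every NMBA array was below every control array. Hey1 fell by 0.55 ± 0.11 (SE) on the log2 scale at week 6 (1.46-fold lower, adjusted p = 0.0248) and by 0.60 ± 0.11 at week 29 (1.52-fold lower, adjusted p = 0.0117). At week 15 the difference was -0.31 ± 0.11 and did not pass (adjusted p = 0.121). Week 15 and week 6 did not differ in the test (0.24, 95% interval -0.01 to 0.49). The week 6 call was lost without control replicate 1 (adjusted p = 0.0914), control replicate 3 (0.089), or week 6 replicate 1 (0.0657), 2 (0.0779) or 3 (0.0761). The week 29 call was just missed without control replicate 1 (0.0511) or week 29 replicate 2 (0.0512).

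**Figure D2:**
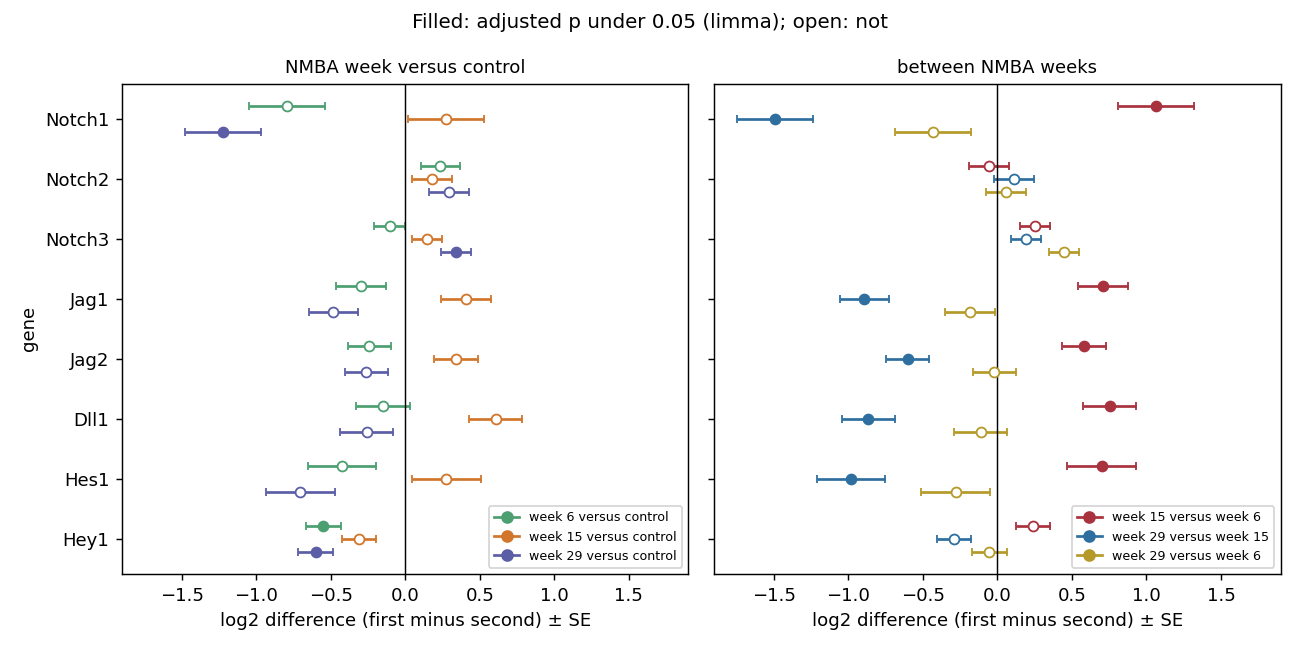
Log2 difference ± SE of each gene for every NMBA week against control (left) and between NMBA weeks (right), from a limma fit of 12 arrays. Filled points have an adjusted p under 0.05: Notch1, Notch3 and Hey1 at week 29 and Hey1 at week 6 against control, and Notch1, Jag1, Jag2, Dll1 and Hes1 in both comparisons with week 15.

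Counted over the 8 genes, 0 rose and 1 fell at week 6 against control, where 7.54% of all probe sets were called, 5.11% higher and 2.44% lower. At week 15 limma called 0 of 8 against control, with 4 at an unadjusted p under 0.05, as were 7735 of all 31042 probe sets. After adjustment 7.91% of all probe sets were called, 1.7% higher and 6.21% lower. At week 29, 1 rose and 2 fell, against a background of 15.2%, made of 7.72% higher and 7.44% lower. Counted by arrays that did not overlap the controls, there were 0 members higher and 4 lower at week 6 (18.7% and 17.2% of all probe sets, 35.9% in all), 2 higher and 1 lower at week 15 (13.2% and 13.1%, 26.4% in all) and 1 higher and 2 lower at week 29 (22.1% and 15.7%, 37.7% in all). The median log2 difference of the members was -0.27, 0.27 and -0.37 at weeks 6, 15 and 29, beside -0.02, 0.06 and 0.04 over all probe sets. These 3 comparisons share the control arrays.

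Comparisons with week 15 called far more of the table. Between weeks 15 and 6, 5 of 8 members rose and 0 fell, where 37.8% of all probe sets were called, 20.3% higher and 17.4% lower. Between weeks 29 and 15, the same 5 fell and 0 rose, where 35.4% were called, 17.1% higher and 18.3% lower. Arrays did not overlap for 7 members higher and 0 lower between weeks 15 and 6 (27.8% and 21% of all probe sets, 48.8% in all), and for 1 higher and 5 lower between weeks 29 and 15 (21.4% and 23.2%, 44.6% in all). The median difference of the members was 0.64 and -0.73 in these comparisons, beside 0.08 and -0.02 over all probe sets, and both share the week 15 arrays. Between weeks 29 and 6, limma called 0 of 8 members and 0 probe sets (0% of the table), with 1 member, Notch3, and 3005 probe sets at an unadjusted p under 0.05. Notch3 was then 0.45 ± 0.10 higher on the log2 scale at week 29 (adjusted p = 0.294), with no overlap of the arrays, as for 11.4% of probe sets in that direction (6.08% in the other, 17.5% in all).

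The tissue on the arrays held more than epithelium. The squamous keratin genes Krt5, Krt14, Krt13 and Krt4 were bright on every array, from 11.94 to 14.55, and so was Acta1, the actin of skeletal muscle, from 14.03 to 14.71, although the protocol strips the muscle layers. A mean log2 signal over 9 measured basal keratinocyte genes of 10 listed (squamous basal score) was 11.26 ± 0.15 at week 6, 12.04 ± 0.19 at week 15 and 11.18 ± 0.41 at week 29, against 11.84 ± 0.12 in controls. The score of 34 measured skeletal muscle genes moved the other way, with 12.71 ± 0.06, 11.09 ± 0.81 and 12.55 ± 0.10 at weeks 6, 15 and 29, against 12.17 ± 0.23 in controls. In bulk tissue, fewer cells of a type and less RNA per cell cannot be told apart.

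Notch1 followed the squamous basal score across the arrays. Pearson's r was 0.96 over the 12 arrays and 0.86 between deviations from the group means, as a description of arrays that share their groups. At week 29, replicate 1 had a squamous basal score of 11.64, and replicates 2 and 3 had 11.05 and 10.85, the same split that Notch1 showed. Jag1, Dll1, Hes1 and Jag2 had r of 0.93, 0.87, 0.89 and 0.89 with this score, while Notch3 had -0.12. A score of 13 measured suprabasal (differentiation) genes of 14 listed was 10.15 ± 0.29 at week 6, 11.64 ± 0.46 at week 15 and 9.63 ± 0.31 at week 29, against 11.07 ± 0.20 in controls. Hes1 had r of 0.91 with the suprabasal score and 0.77 between deviations from group means, against 0.89 and 0.70 with the basal score. For Notch1 the values with the suprabasal score were 0.84 and 0.02. Of the 13 suprabasal genes, 11 fell at week 29 against control, and 13 rose between weeks 15 and 6 and fell between weeks 29 and 15. Of all probe sets, 7.44% fell, 20.3% rose and 18.3% fell in these comparisons. The part of the suprabasal genes in the Hes1 result was not tested. With the squamous basal score as a covariate, an alternative chosen after seeing the data, the Notch1 differences from control were -0.03 at week 6, 0.01 at week 15 and -0.36 at week 29 (adjusted p = 0.881), and none of the 14 calls made on members in the 6 comparisons held. The differences did not all shrink: Hey1 was at -0.71 at week 6 (adjusted p = 0.43) and -0.78 at week 29 (adjusted p = 0.266), both larger than without the covariate, and Notch3 was at 0.32 at week 29 (adjusted p = 0.8). This covariate differs between the groups, and 4 probe sets of the table were called at week 29 with it.

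Jag2 tracked the skeletal muscle score most closely of the members, with r of -0.94 over the arrays and -0.83 between deviations from group means. With the muscle score as a covariate, Jag2 differed by -0.03 between weeks 15 and 6 and by -0.05 between weeks 29 and 15, and neither passed. Notch1 and Hey1 kept their week 29 calls against control with this covariate, at -1.12 (adjusted p = 0.0332) and -0.62 (adjusted p = 0.0215), and the other 12 member calls were lost. Of those, Hey1 at week 6 was at -0.58 (adjusted p = 0.0839) and Notch3 at week 29 at 0.35 (adjusted p = 0.0721), differences no smaller than without the covariate.

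Hey1 moved with endothelial genes instead. The score of 12 measured endothelial genes of 14 listed was 8.29 ± 0.03 at week 6, 8.39 ± 0.18 at week 15 and 8.13 ± 0.14 at week 29, against 8.74 ± 0.17 in controls, and 4, 4 and 8 of the 12 fell in the 3 comparisons with 0 rising. Beside these counts, 2.44%, 6.21% and 7.44% of all probe sets fell, and 5.11%, 1.7% and 7.72% rose. Hey1 correlated with the endothelial score at 0.94 over the 12 arrays and at 0.82 between deviations from group means, and at 0.52 and -0.48 with the squamous basal score. The part of the endothelial genes in the Hey1 result was not tested.

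**Figure D3:**
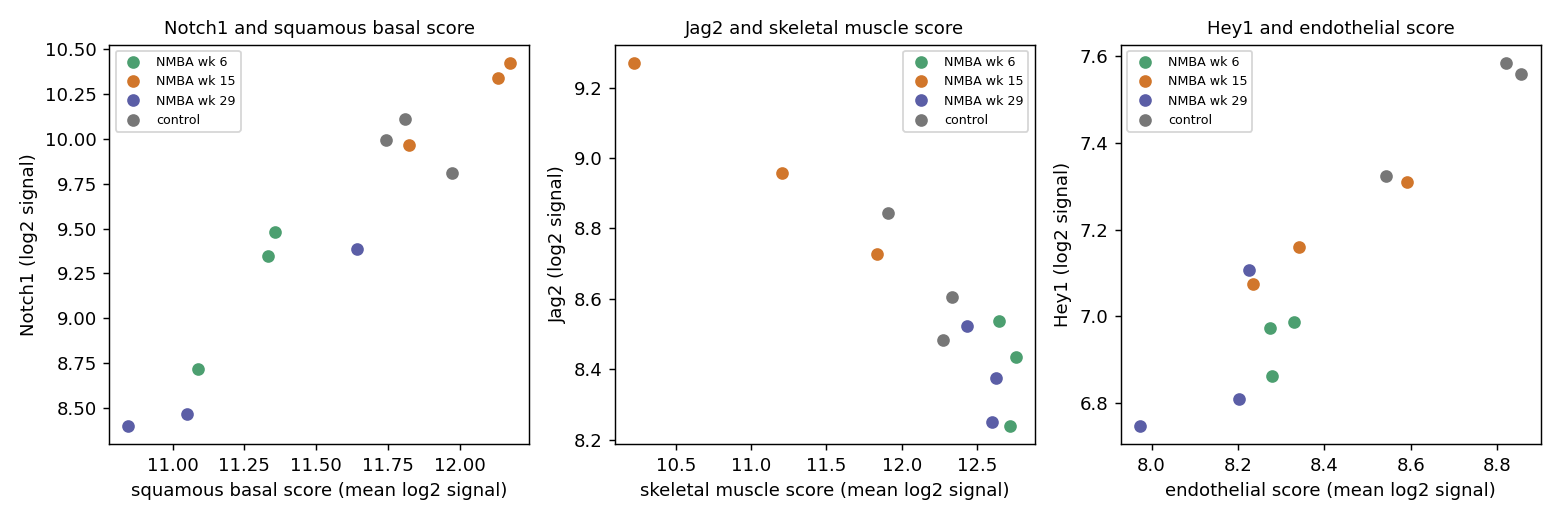
Log2 signal of Notch1, Jag2 and Hey1 (vertical axes) against the mean log2 signal of squamous basal, skeletal muscle and endothelial marker genes (horizontal axes), 1 point per array, coloured by group. Notch1 rises with the basal score, Jag2 falls with the muscle score, and Hey1 rises with the endothelial score.

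A measure of RNA integrity moved with the groups as well. The log2 signal of the GAPDH probe set at the 3' end minus that at the 5' end, which is larger in degraded RNA, was 0.11 ± 0.04 at week 6, 0.40 ± 0.19 at week 15 and 0.17 ± 0.04 at week 29, against 0.40 ± 0.16 in controls. With it as a covariate, 4 of the 14 member calls held, all between weeks 29 and 15 (Notch1, Jag1, Dll1 and Hes1). Hey1 was then at -0.39 at week 6 (adjusted p = 0.482) and -0.48 at week 29 (adjusted p = 0.133), and Notch1 at -1.22 at week 29 (adjusted p = 0.123). Between weeks 15 and 6 Notch1 was at 1.05 (adjusted p = 0.0795) and Hes1 at 0.89 (adjusted p = 0.0877), and Notch3 was at 0.39 at week 29 (adjusted p = 0.168). For Notch1 (at week 29 and between weeks 15 and 6), Hes1 and Notch3, the difference was about as large as without the covariate or larger. The remaining lost calls shrank. Jag1, Jag2 and Dll1 were at 0.57, 0.44 and 0.54 between weeks 15 and 6, and Jag2 was at -0.49 between weeks 29 and 15.

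Some members moved with each other across the arrays. Jag1 and Dll1 correlated at 0.94 over the 12 arrays and at 0.88 between deviations from group means, and Jag1 and Jag2 at 0.92 and 0.75. Notch1 correlated with Jag1 at 0.90, with Hes1 at 0.86 and with Dll1 at 0.85. For Notch1 and Hes1 the correlation of deviations was 0.52. Hey1 correlated with Hes1 at 0.42 over the arrays but at -0.44 between deviations, and Notch3 ranged from -0.33 (with Hes1) to 0.24 (with Notch2). Notch2 had negative r with the 6 members other than Notch3, among them -0.60 with Notch1 (-0.58 between deviations), -0.40 with Hes1 and -0.33 with Jag2. With Hey1, Notch2 had -0.28 over the arrays but 0.80 between deviations. These values describe 12 arrays that share groups and that also differ in their muscle and basal scores.

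The rest of the pathway was counted from 66 further genes in 5 lists, of which 55 were measured. At week 6 against control 1 rose and 4 fell, at week 15 1 rose and 4 fell, and at week 29 4 rose and 10 fell. Over all probe sets, 5.11% rose and 2.44% fell at week 6, 1.7% rose and 6.21% fell at week 15, and 7.72% rose and 7.44% fell at week 29. Between weeks 15 and 6, 17 of the 55 rose and 9 fell (20.3% and 17.4% of all probe sets), and between weeks 29 and 15, 10 rose and 16 fell (17.1% and 18.3%). Between weeks 29 and 6, limma called 0. The list medians of the 55 genes lay between -0.09 and 0.07 in all 6 comparisons.

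Of 14 other target genes, 3 fell at week 6, where 2.44% of all probe sets fell, and 4 fell and 1 rose at week 29, where 7.44% fell and 7.72% rose. Nrarp, a feedback inhibitor that Notch induces directly, had signals of 7.57, 7.36 and 7.60 at week 6, 8.47, 8.54 and 8.76 at week 15 and 7.88, 7.18 and 7.27 at week 29, against 8.44, 7.95 and 8.37 in controls. It was lower at week 6 (-0.74 ± 0.18, adjusted p = 0.0332) and at week 29 (-0.81 ± 0.18, adjusted p = 0.0171), with no overlap with controls in either, and higher at week 15 than at week 6 by 1.08 ± 0.18 (adjusted p = 0.000732).

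Id1, an inhibitor of helix-loop-helix factors, fell by 0.92 at week 6 and by 1.22 at week 29 (adjusted p = 0.0209 and 0.00465), with 8.71, 8.67 and 8.50 at week 29, against 9.87, 9.78 and 9.89 in controls. Ccnd1, a G1 cyclin, fell by 0.69 at week 6 and fell by 1.03 at week 29 (adjusted p = 0.0296 and 0.00753). Id3, a relative of Id1, fell by 0.87 at week 29 (adjusted p = 0.0303). Heyl, a Hey family repressor, went the other way: it was 6.57, 6.74 and 7.10 at week 29, against 6.23, 6.26 and 6.02 in controls, a rise of 0.63 ± 0.16 (adjusted p = 0.0238). Hes2, Hes3, Hes5, Hes6 and Hey2 were not called against control at any week. Id1, Id3, Ccnd1 and Myc also answer to pathways other than Notch.

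**Figure D4:**
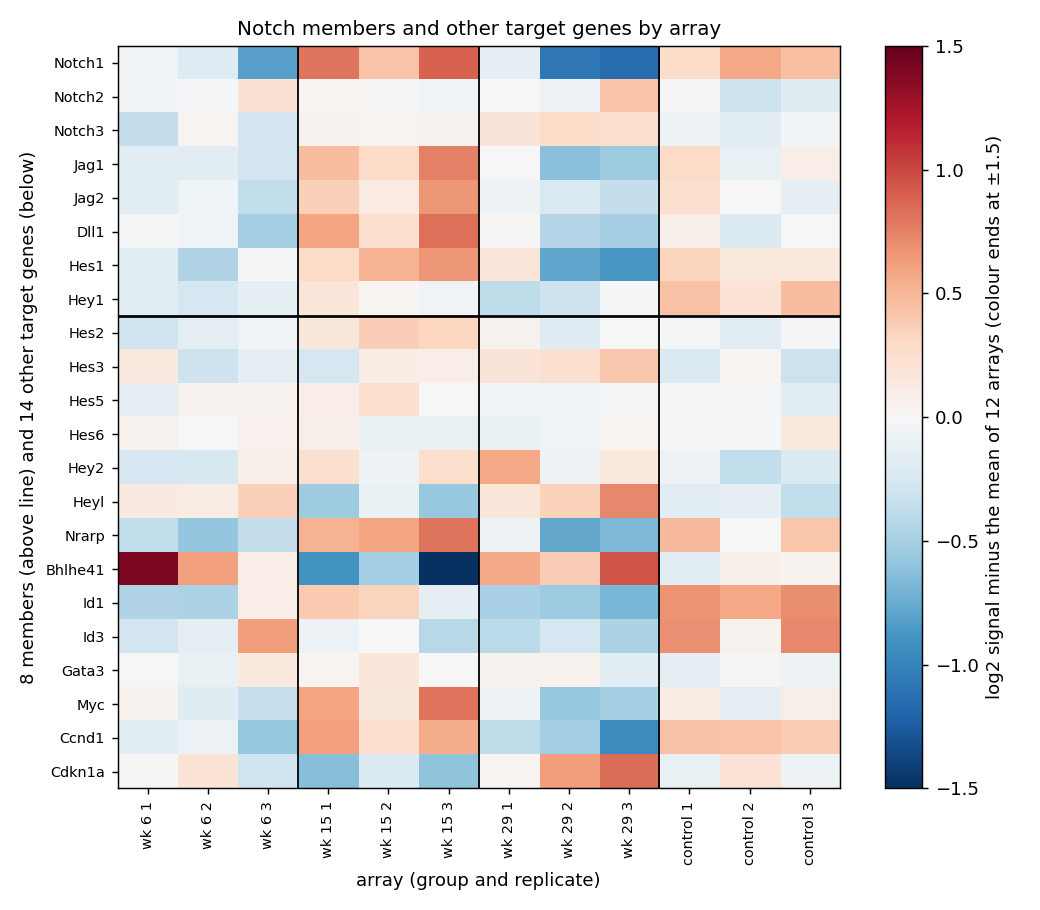
Log2 signal minus the mean of 12 arrays for the 8 members (above the line) and the 14 other measured target genes (below), 1 column per array; red is above and blue below the gene's mean, and the colour scale ends at ±1.5. Nrarp, Myc and Ccnd1 share the red week 15 columns of Notch1, Jag1, Jag2, Dll1 and Hes1, whereas Heyl, Bhlhe41 and Cdkn1a are mostly blue there.

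In the nuclear complex, Rbpj itself fell at week 15, to 8.55, 8.36 and 8.37, against 9.01, 8.82 and 8.86 in controls (log2 difference -0.47 ± 0.09, adjusted p = 0.0131), the week at which Notch1 and its ligands were highest. Rbpj was lower at week 15 than at week 6 as well (-0.42, adjusted p = 0.0037), and week 29 was above week 15 by 0.41 (adjusted p = 0.00406). Kat2b, an acetyltransferase coactivator, showed the larger swing, with a rise of 0.70 at week 6, a fall of 1.04 at week 15 and a rise of 0.64 at week 29 against control (adjusted p = 0.0403, 0.0094 and 0.0366). Tle3, a Groucho corepressor through which Hes proteins act, fell by 0.39 at week 6 and by 0.60 at week 29 (adjusted p = 0.0372 and 0.0083), and Hdac1, a histone deacetylase, fell by 0.62 at week 29. The skeletal muscle score was lowest in the week 15 arrays where Rbpj and Kat2b were lowest, and its part in these changes was not tested for them.

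Among genes that process or modify the receptors, 1 of 11 fell at week 29, Adam17, a protease able to make the first cut, by 0.40 (adjusted p = 0.036). Aph1a, a gamma-secretase subunit, rose by 0.49 ± 0.12 at week 15 (adjusted p = 0.0314), with 10.03, 9.89 and 10.19, against 9.37, 9.58 and 9.69 in controls. Of 11 genes of trafficking and turnover, 2 fell at week 15: Neurl1, an E3 ligase for ligands, by 1.23 (adjusted p = 0.0245) and Numbl by 0.42 (adjusted p = 0.0345). At week 29, 1 of the 11 rose, Neurl1, by 0.93 (adjusted p = 0.0484), and 2 fell: Numb, an inhibitor of Notch, by 0.44 (log2 difference -0.44, adjusted p = 0.0455) and Dtx2, a Deltex ligase, by 0.31 (log2 difference -0.31, adjusted p = 0.0495). The Neurl1 means were 11.13, 9.11 and 11.27 at weeks 6, 15 and 29, against 10.34 in controls. The skeletal muscle score was lowest at week 15 as well, and its part in the Neurl1 changes was not tested. Of the 5 other receptors and ligands measured (Notch4, Dll3, Dll4, Dlk1 and Dlk2), 0 passed at weeks 6 and 15, and Dlk1 rose by 0.33 at week 29 (adjusted p = 0.0467) at a signal of 4.80 ± 0.19 against 4.47 ± 0.07 in controls. Beside these counts, 5.11% of all probe sets rose and 2.44% fell at week 6. The shares were 1.7% and 6.21% at week 15, and 7.72% and 7.44% at week 29.

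The genes whose course was closest to each member were ranked by Pearson's r over the 12 arrays among 14217 genes. Genes with provisional names, such as LOC or RGD with digits, were passed over, so the named genes are the closest of the rest. For Notch1 they were Actr2 (0.99), which encodes an actin-related protein, the ubiquitin ligase gene Trim25 (0.99) and C11h21orf91 (0.99), and Actr2 kept 0.98 between deviations from group means. Jag1 was followed most closely by Hoxc5 (0.99), Hells (0.99) and Gclc (0.99), Jag2 by Gsto1 (0.98), Reep5 (0.97) and Abcd3 (0.97), and Dll1 by Lrig3 (0.98), Entpd5 (0.98) and Csad (0.98). The nearest to Hes1 were Lgals7 (0.97), galectin 7 of stratified epithelium, Calml3 (0.97) and Gemin4 (0.97). The Calml3 means were 10.91, 12.25 and 10.54 at weeks 6, 15 and 29, against 11.60 in controls.

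Hey1 ran closest to Lrat (0.96), which esterifies retinol, Prnd (0.94) and C13h1orf115 (0.93). The Prnd means were 4.45, 4.69 and 4.10 at weeks 6, 15 and 29, against 5.44 in controls. Notch3 ran closest to Fam216b (0.92), Robo3 (0.92) and Rlbp1 (0.89), and Notch2 to Mepce (0.89), Mfsd3 (0.86) and Tbl2 (0.85). Fam216b and Rlbp1 were dim, with group means between 4.34 and 4.84, and those of Robo3 ran from 5.00 to 5.32. Whether Fam216b, Rlbp1 and Robo3 exceeded background was not assessed.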

How the data were processed

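RNA of 12 rat esophagus samples was measured on Affymetrix arrays. The authors deposited log2 signals per probe set. Per the submitters' processing notes they used Affymetrix Expression Console; how probes were summarized was not given in the sources used here, and the log2 scale was read from the values. Array medians ran from 6.42 to 6.49. Arrays of 1 group correlated at 0.98 to 1.00 across probe sets, and any pair held exactly equal deposited values (no tolerance) at 7 to 47 probe sets, so no array was a copy of another. The number of arrays limits the precision. The 57 array control probe sets of 31099 were set aside. Values were used as deposited, with no filter. The platform annotation gave 1 symbol to 20826 probe sets, several to 436 and listed 9780 not at all; the brightest probe set stood for a gene.

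All tests were two-sided and came from 1 limma fit (version 3.58.1, R 4.3.3; lmFit, then eBayes) of the 4 groups, with 8 residual degrees of freedom. Benjamini-Hochberg adjustment covered 31042 probe sets, and a call needed an adjusted p under 0.05. The fit was tested on simulated data. Members, lists and the rule for named genes (all members, up to 5 called pathway genes a comparison by p, and the 3 nearest genes by Pearson's r) were chosen with earlier results of these data known; Dlk1, Numb, Dtx2, Id3, Adam17, Heyl, Bhlhe41, Myc and Cdkn1a were named after their values were seen. Alternatives were median scaling, a signal filter at 5, other variance models, covariates, the replicate block, and leaving out arrays.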

Additional observations from a re-analysis of the deposited data

Results flagged for a closer look

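The NMBA groups of different weeks differed for 5 members by limma's test of the difference between the weeks. The control mean cancels in such a difference, so an effect of NMBA and one of the week itself cannot be told apart. Week 15 minus week 6 was 1.06 for Notch1, 0.71 for Jag1, 0.58 for Jag2, 0.75 for Dll1 and 0.70 for Hes1 on the log2 scale (3 arrays a group, every week 15 array above every week 6 array for each of the 5). Week 29 minus week 15 was -1.49 for Notch1, -0.89 for Jag1, -0.60 for Jag2, -0.87 for Dll1 and -0.98 for Hes1, with every week 29 array below every week 15 array. Between weeks 15 and 6, 20.3% of all probe sets were called higher and 17.4% lower, and 27.8% and 21% did not overlap. Between weeks 29 and 15, 17.1% were called higher and 18.3% lower, and 21.4% and 23.2% did not overlap. Both sets of differences use the same week 15 arrays, whose skeletal muscle scores of 11.21, 11.83 and 10.22 lay below those of all other arrays (11.91 to 12.75). No cause was tested.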

How the results depend on the processing

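Median scaling, the 6-array fit and the signal filter kept all 14 member calls (the filter at 5 left out Notch2 and added Hes1 at week 29 against control, for 4 members called in place of 3), and the trend and robust variance and the replicate block lost Notch3 at week 29 alone. Of 18 pairs of same-numbered arrays, 8 had deviations correlated above 0.1, and 3 of 12 arrays correlated best with their own number, so the numbers are not taken as pairs; with the replicate block 1, 0, 2, 5, 5 and 0 members were called at weeks 6, 15 and 29 against control, for week 15 against 6, 29 against 15 and 29 against 6, in place of 1, 0, 3, 5, 5 and 0.

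Members called moved to 2 at week 6 in the 6-array fit, Notch1 beside Hey1. With the muscle score they were 0 at week 6 and 0 in both comparisons with week 15. With the GAPDH value they were 0 at weeks 6 and 29 and 0 for week 15 against 6. With the squamous basal score they were 0 in each of these 4 comparisons. Leaving out 1 array gave 0 to 2 at week 6, 0 to 1 at week 15, 0 to 5 at week 29, 4 to 5 for week 15 against 6 and 5 to 6 for week 29 against 15.

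Probe sets called, 2342 at week 6, were 4391 in the 6-array fit, 19 with the muscle score, 8 with the GAPDH value and 0 with the basal score (1 to 3454 without 1 array: 3, 1, 57, 1, 3 and 1377 without control replicates 1 and 3, week 6 replicates 1, 2 and 3, and week 29 replicate 2). The 2455 at week 15 were 135 in the 6-array fit, 0 with the muscle score and 1334 with the basal score (881 to 3057; 881, 927 and 1015 without control replicates 2 and 3 and week 15 replicate 3). The 4705 at week 29 were 2536 with the muscle score, 132 with the GAPDH value and 4 with the basal score (274 to 6120; 689, 976, 769 and 274 without control replicates 1 and 3 and week 29 replicates 2 and 3). The 11723 for week 15 against 6 were 79, 4849 and 271 with the muscle score, the GAPDH value and the basal score, and the 10987 for week 29 against 15 were 421, 6915 and 29. The cause was not tested.

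Signs turned in 23 of 960 member values, 2 of them called in the fit without covariates, and no turned value was called. With the basal score, Dll1 was 0.37 at week 6 and 0.33 at week 29, Hes1 0.12 at week 6 and -0.032 for week 15 against 6, Jag1 0.16 and 0.042 at weeks 6 and 29, Jag2 0.10 and 0.13 at weeks 6 and 29 and 0.027 for week 29 against 6, and Notch2 0.20 for week 15 against 6 and -0.17 for week 29 against 15. With the muscle score, Dll1 was 0.062 at week 6, Jag2 -0.070 at week 15 and -0.033 for week 15 against 6, and Notch1 -0.028 at week 15. With the GAPDH value Dll1 was 0.067 at week 6. Without 1 array, Dll1 ran from -0.23 to 0.004 at week 6, Hey1 from -0.16 to 0.018 and Jag2 from -0.10 to 0.046 for week 29 against 6, and Notch2 from -0.10 to 0.029 for week 15 against 6, -0.041 to 0.21 for week 29 against 15 and -0.10 to 0.16 for week 29 against 6.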
